A study of Mus musculus with 9 samples.

Results

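The Mediator and RNA polymerase subunit genes of cultured mouse round spermatids (RS) were taken from the count table by name. The pattern was Med followed by a digit, or Polr followed by 1, 2 or 3, with pseudogenes left out and at least 10 counts summed over the 9 libraries required. It matched 62 genes, all 62 of which passed the count minimum, among 25128 genes tested. Of these, 31 carry a Med name and 31 a Polr name. Med9os and Polr1has are transcripts of the opposite strand and encode no subunit, which leaves 30 Mediator and 30 polymerase subunits. The rule uses names and the count minimum, and no difference between groups.

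RS, the haploid cells that follow meiosis in the testis, had been incubated for 24 h in 3 groups of 3 libraries each. The groups were vehicle (0.15% DMSO, libraries 1 to 3), 24 mM oxamate, an inhibitor of lactate dehydrogenase (libraries 4 to 6), and 24 mM oxamate with 0.3 mM octyl-L2HG (called octyl-L-2HG here), a cell-permeable form of L-2HG (libraries 7 to 9). All groups shared the DMSO, and the last 2 shared the oxamate, so no group had octyl-L-2HG without oxamate. The labels give the genotype as WT and no age; by the study's methods germ cells were sorted by size and red fluorescence from Stra8-Tom mice on a C57Bl/6 background, in which Cre driven by the Stra8 promoter switches on a tdTomato reporter. The libraries of a group are described as replicate incubations, and nothing says that they came from separate mice, so the p-values measure only the spread between these libraries, which may be technical. Each library held between 32339533 and 39888396 counted reads of polyadenylated RNA, of which the 62 genes took 0.257% to 0.295%.

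RNA polymerase I transcribes ribosomal RNA, polymerase II transcribes messenger RNA, and polymerase III transcribes transfer RNA, 5S ribosomal RNA and other short RNAs. Each is built from subunits of its own around a core that includes subunits shared with the others. Mediator is a large complex that carries signals from DNA-bound activators to polymerase II. Its head and middle modules contact the polymerase, its tail contacts activators, Med14 is the scaffold that joins them, and a separable kinase module (Med12, Med13 or their paralogs with cyclin C and Cdk8 or Cdk19) binds reversibly. RS transcribe actively for a limited time before the nucleus is condensed, and the CREM activator of these cells acts through cAMP response elements.

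Promoter windows were found in RefSeq for 52 of the 62 genes, 3 of them through an older symbol. Shown here are those of the 4 genes with the lowest adjusted p in the test of any difference among the groups, namely Med26, Med31, Med1 and Polr1h. Each runs 5′ to 3′ on the minus strand of build GRCm38.p6, from 250 bases before to 50 bases after the annotated start. Capitals mark TGACG, the core of the cAMP response element, on either strand (CGTCA on the other). The overlap TGACGTCA makes up the full element. Polr1h, listed there as Znrd1, has 2 starts, and the window of the second start given is printed.
Med26 (chr8:72548261-72548560): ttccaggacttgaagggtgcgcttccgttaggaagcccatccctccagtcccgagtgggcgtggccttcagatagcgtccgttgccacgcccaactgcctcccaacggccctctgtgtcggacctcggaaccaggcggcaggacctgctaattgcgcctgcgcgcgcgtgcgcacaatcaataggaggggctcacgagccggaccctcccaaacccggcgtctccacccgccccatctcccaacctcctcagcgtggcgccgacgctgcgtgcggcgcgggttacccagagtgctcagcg
Med1 (chr11:98192857-98193156): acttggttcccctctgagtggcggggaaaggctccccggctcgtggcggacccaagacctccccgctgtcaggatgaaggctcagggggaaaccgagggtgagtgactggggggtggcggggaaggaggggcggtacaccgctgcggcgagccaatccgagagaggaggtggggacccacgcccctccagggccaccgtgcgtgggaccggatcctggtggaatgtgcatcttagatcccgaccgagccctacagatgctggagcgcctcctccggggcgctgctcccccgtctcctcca
Med31 (chr11:72215543-72215842): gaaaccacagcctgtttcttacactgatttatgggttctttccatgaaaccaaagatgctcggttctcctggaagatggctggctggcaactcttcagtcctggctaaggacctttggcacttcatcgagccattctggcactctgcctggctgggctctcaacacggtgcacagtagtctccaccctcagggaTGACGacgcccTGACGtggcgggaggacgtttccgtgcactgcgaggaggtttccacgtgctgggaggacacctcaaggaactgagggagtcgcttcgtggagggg
Polr1h (chr17:36958476-36958775): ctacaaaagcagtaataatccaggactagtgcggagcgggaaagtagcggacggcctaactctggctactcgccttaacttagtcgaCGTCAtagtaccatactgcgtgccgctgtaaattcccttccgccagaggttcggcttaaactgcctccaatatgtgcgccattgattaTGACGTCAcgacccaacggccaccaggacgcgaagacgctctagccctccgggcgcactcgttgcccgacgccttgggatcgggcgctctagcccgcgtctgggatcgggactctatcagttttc

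The windows of Med31 and Polr1h, which were lower with both compounds, hold this core, and those of Med26 and Med1, which were higher, do not. In Med31 it stands 2 times, 56 and 45 bases before the start. In Polr1h a full TGACGTCA begins 75 bases before this start. Over all 32851 windows in RefSeq 20.8% held TGACG and 1.79% held TGACGTCA, against 36.7% and 6.67% of the 60 windows of members. The latter are 4 windows of 3 genes, Med21, Polr1h and Polr1has, and the windows of Polr1h and Polr1has overlap and hold the same copy. Of these genes Med21 (-0.07) and Polr1has (0.12) were not called with both compounds against vehicle. The share with GGGCGG, the GC box, was 56.7% of the members' windows and 35.7% of all, and the share with CCAAT was 35.0% and 37.4%. These are matches of letters on either strand and not measured sites. With both compounds against vehicle, TGACG stood in a window of 3 of the 5 lower members (Med31, Polr1h and Med29) and of 1 of the 10 higher members that have a window (Polr2a), and in 16 of the 37 members with a window that were not called. No test was made of these counts.

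Levels were first compared among members in vehicle, as normalized counts (counts divided by the size factor of the library) per kb of exon. They spanned a wide range. The highest subunits were Med29 of the tail with 1832 ± 202 (SD, n = 3), Med28 of the head with 1813 ± 190.1 and Polr1h, a small subunit of polymerase I, with 1743 ± 199. Polr1b, the second largest subunit of polymerase I, was the lowest with 0.79 ± 0.17, and Polr2h, which all 3 polymerases share, had 2.82 ± 0.88. The module medians lay between 46.1 for subunits of polymerase III alone and 464.9 for the Mediator tail, apart from the 2 subunits shared by polymerases I and III (median 1220.0). In raw depth, 51 of the 62 genes averaged at least 100 normalized counts, and 4 (Polr3g, Polr2h, Med18 and Polr1b) had a mean under 10, where differences were hardly detectable. Subunits of a complex thus did not share a transcript level, and reads of near-identical gene copies could have been lost or split in the counting.

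**Figure D1:**
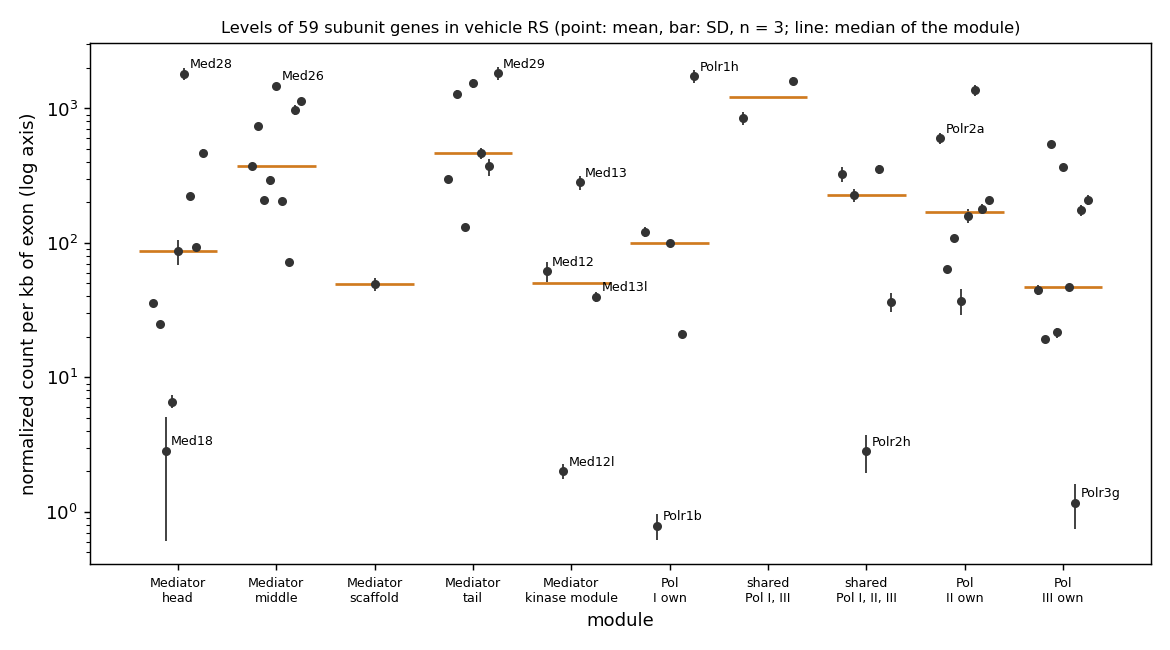
Mean normalized count per kb of exon in vehicle RS on a log axis, with the SD over 3 libraries, for 59 subunit genes by module; the line is the median of the points shown. Levels within most modules span more than the medians differ, from Polr1b at 0.79 to Med29 at 1832.

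Paralogs differed in level. Polr3gl had 258, 276 and 306 normalized counts in the vehicle libraries and Polr3g, the other form of this polymerase III subunit, had 2.67, 5.69 and 5.49. Per kb this was 175 ± 15.2 against 1.17 ± 0.43. With oxamate Polr3gl had 269.6, 258 and 281 and Polr3g had 0.95, 2.89 and 7.67, and with both compounds they had 309, 323 and 283 and 5.62, 8.07 and 5.62. Every library of each group had more Polr3gl than Polr3g, and neither gene changed past the threshold. Med12 had 421, 437 and 563 normalized counts with vehicle and Med12l 22.2, 28.4 and 26.6, and per kb they stood at 61.5 ± 10.1 and 2.02 ± 0.25. Med12 had 482, 493 and 509 with oxamate and 473, 506 and 474 with both compounds, and Med12l had 27.6, 17.3 and 31.8 and 28.1, 28.8 and 11.2. The groups overlapped for both. Med13 was the more abundant form of the third pair, with 282 ± 32.8 per kb in vehicle against 39.7 ± 3.37 for Med13l.

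Oxamate library 4 stood apart from the other oxamate libraries. Over the genes with a mean of at least 100 normalized counts, its log2 values differed from those of libraries 5 and 6 by 0.238 and 0.262 (root mean square), against 0.113 between libraries 5 and 6, 0.139 to 0.187 among vehicle libraries and 0.12 to 0.155 among those with both compounds. It also had the largest share of counts in the 62 genes. Counts of calls, and the calls that appear or go without it, are given beside the results. Summed markers of RS, 10 genes such as Acrv1 and Tnp1, reached 83585 to 88790 normalized counts in every library, and 8 markers of spermatocytes reached 22286 to 25327. The RS markers did not all keep their level. With oxamate Prm1 (-0.45) and Tnp1 (-0.26) were lower and Catsper1 (0.24) was higher. With both compounds against vehicle Tssk6, Prm1, Tnp1 and Gapdhs were lower, at log2 -0.998, -0.774, -0.558 and -0.227, Acrv1 and Acr were higher, at 0.25 and 0.21, and the other 4 were not called. The same 4 were lower against oxamate. Of the spermatocyte markers Piwil1 was higher with oxamate (0.26) and Sycp2 when octyl-L-2HG was added (0.37). The part of these changes in the results was not tested. Markers of other cells were low. The 6 endothelial and myoid genes summed to 511 to 568 with vehicle, 501 to 523 with oxamate and 389 to 430.0 with both compounds, a fall carried mainly by Vwf, the only gene of these that was called (-0.52 against vehicle), and its part in the results was not tested. Sertoli genes summed to 102 to 183, Leydig genes to 23.0 to 41.2, macrophage genes to 137 to 183, spermatogonial genes to 262 to 304 and erythroid genes to at most 1.83.

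The question of the design is what lactate dehydrogenase inhibition did to transcripts in RS and which of its effects added L-2HG changed. With oxamate 6 of the 62 genes rose and none fell: Med26, Polr2a, Med1, Med14, Med23 and Med10, by log2 0.25 to 0.63. All were called at an adjusted p under 0.05 by the quasi-likelihood test of edgeR, adjusted over all genes by the method of Benjamini and Hochberg, as are all adjusted p-values here. At an unadjusted p under 0.05 there were 9 higher and 4 lower, and with DESeq2 8 were called. Across all genes tested, 3.97% rose and 1.22% fell. Rising genes thus made up 9.68% of the members, but most members were well expressed: among genes with a mean of at least 100 normalized counts, 11.8% of 51 members and 8.08% of all 10715 genes rose. In 12 members (19.4%) the libraries of the groups did not overlap, against 21.3% of all genes. The median log2 fold change was 0.01 over the members and -0.01 over all genes. Without oxamate library 4 the count became 11, with 7 higher and 4 lower; Med13 (0.37) and Med13l (0.30) were then also called higher and Med22, Med28, Polr2i (-0.24) and Polr3k (-0.31) lower, and without vehicle library 2 it was 3. In bulk RNA a smaller share of cells of one type and less RNA per cell cannot be told apart.

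When octyl-L-2HG was added to oxamate, 3 members rose against oxamate alone, Med26 and Polr3e among them, and 2 fell (Med31 and Polr1h). These were 4.84% and 3.23% of the members, where 3.18% of all genes rose and 8.06% fell. Among genes with a mean of at least 100 normalized counts, 3.92% of members rose and 3.92% fell, against 7.06% and 12.7% of all. The libraries did not overlap in 22 of the 62 members, against 28.8% of all genes. This count was unstable. Without oxamate library 4 it was 13 (10 higher, 3 lower). The calls that appeared were Med22 (0.60), Polr2b (0.31), Polr1a (0.27), Med15 (0.25), Polr2e (0.25), Med16 (0.24) and Med9 (0.19), all higher, and Med13 (-0.26), lower. It was 2 without oxamate library 5, or without library 8 or 9 of both compounds, and 3 without library 7, and Med31 and Polr1h were called in each of the 9 fits that left out 1 library. With DESeq2 it was 10, with Polr2b (0.30), Polr2m (0.27), Polr1a (0.24), Med15 (0.23) and Med1 (0.18) also higher, and with total counts as the scaling 7 members were called, 1 higher and 6 lower.

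Against vehicle, RS with both compounds had 12 members higher and 5 lower. Among the 12 were Med26, Med1, Med15, Med13l, Med23, Med14, Polr2a, Polr2b, Polr2c, Polr1a and Polr3e, and the 5 were Med31, Med29, Polr1h, Polr3k and Polr2l. Of all genes 7.48% rose and 10.6% fell, and of genes with a mean of at least 100 normalized counts 16.0% and 13.6%, against 21.6% and 7.84% of the 51 members above that level. In 27 of the 62 members the groups did not overlap, against 36.5% of all genes. With total counts as the scaling the split was 7 higher and 7 lower. It was 21 without oxamate library 4, with Med28 (-0.27), Polr2i (-0.24) and Polr1c (-0.19) also lower and Med9 (0.18) also higher. Without library 8 of both compounds the count was 9, and without vehicle library 2 it was 10. In the test of any difference among the groups 17 of the 62 members were called, where 19.8% of all genes were. Shares among well expressed genes were not computed for this test or for groups that do not overlap. All 3 comparisons share libraries pairwise, and the values of each are given side by side. In 44 members no comparison reached the threshold.

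**Figure D2:**
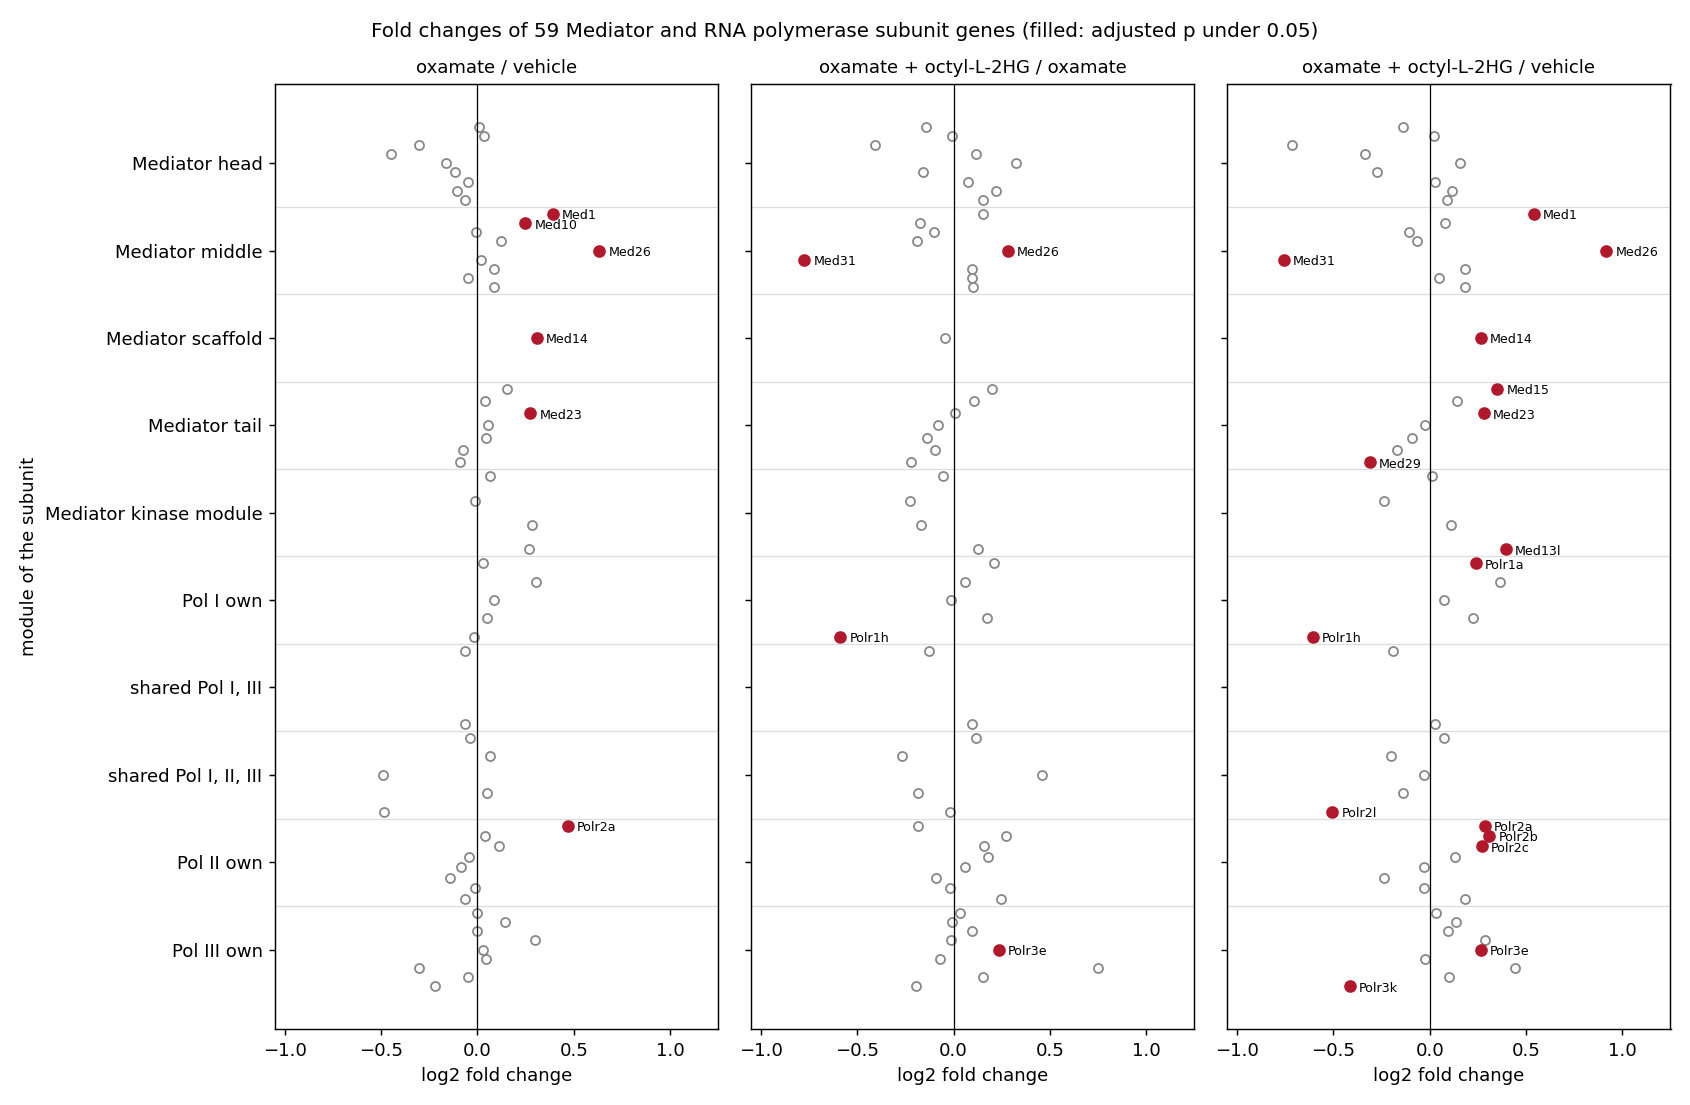
Log2 fold change (x axis) of 59 subunit genes in rows by module, for each of the 3 comparisons; filled points passed an adjusted p of 0.05 (edgeR) and are named. With oxamate 6 points are filled, all to the right, and with both compounds against vehicle 11 lie to the right and 5 to the left, with none in the Mediator head.

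Among the 9 subunits of the Mediator middle module, 3 (33.3%) rose with oxamate, against 3.97% of all genes tested. Of genes with a mean of at least 100 normalized counts 8.08% rose, and no module was tested as a set. Med26, through which Mediator recruits elongation factors to polymerase II, changed most. Its normalized counts were 4592, 4276 and 4444 with vehicle, 8285, 6217 and 6071 with oxamate and 8530.5, 8557 and 8436 with both compounds. The 3 groups did not overlap, and oxamate library 4 lay close to the libraries with both compounds. The rise with oxamate was log2 0.63 ± 0.090 (SE, edgeR, adjusted p = 0.000156), and that with both compounds against vehicle was 0.92 ± 0.090 (SE, edgeR, adjusted p = 4.89e-07), or 1.89-fold. The further rise with octyl-L-2HG was 0.28 ± 0.089 (SE, edgeR, adjusted p = 0.0423). That step was called in only 2 of the 9 fits that left out 1 library, those without vehicle library 1 (0.28) and without oxamate library 4, where it was 0.45. It was 0.20 without oxamate library 6, and it was not called with total counts (0.24) or a mean minimum of 100 (0.27). Without oxamate library 4 the rise with oxamate was 0.47.

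Med1, the Mediator subunit that nuclear receptors bind, had 3101, 3284 and 3353 normalized counts with vehicle, 4268, 4127 and 4326 with oxamate and 4617, 4741 and 5017 with both compounds. The groups again did not overlap and stood in that order. It rose by log2 0.39 ± 0.065 (SE, edgeR, adjusted p = 0.00075) with oxamate and by 0.54 ± 0.065 (SE, edgeR, adjusted p = 5.29e-06) with both compounds. The step from oxamate to both was 0.15 ± 0.065 (SE, edgeR, adjusted p = 0.151) and did not pass the threshold, but was called with DESeq2 at 0.18 (adjusted p = 0.0443). Med10 had 3415, 3362 and 3255 with vehicle, 3980.1, 4066 and 3838 with oxamate and 3589, 3535 and 3617 with both compounds. The oxamate libraries were above both other groups, with a rise of 0.25 ± 0.063 (SE, edgeR, adjusted p = 0.0215). Against oxamate alone the libraries with both compounds were at -0.17 ± 0.063 (SE, edgeR, adjusted p = 0.0872). This step was called with total counts as the scaling (-0.22), with a mean minimum of 100 (-0.19) and with the length trend of each library taken out (-0.20). The rise of Med10 was not called without vehicle library 2 (0.26), vehicle library 3 (0.22) or oxamate library 5 (0.23).

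Med31, a small middle subunit, moved the other way. It had 371, 359 and 335 normalized counts with vehicle, 325, 385 and 367 with oxamate and 214, 214 and 212 with both compounds. Vehicle and oxamate overlapped, and libraries 7 to 9 were below the other 6, within a span of 3 counts. With oxamate the difference was 0.02 ± 0.091 (SE, edgeR, adjusted p = 0.959). With octyl-L-2HG added it was at -0.77 ± 0.097 (SE, edgeR, adjusted p = 2.37e-05) against oxamate, or 0.584 of the oxamate level, and against vehicle the value was -0.76 ± 0.096 (SE, edgeR, adjusted p = 9.46e-06). The other middle subunits, Med4, Med7, Med9, Med19 and Med21, were not called by edgeR over all 9 libraries, with values between -0.19 and 0.18 in the 3 comparisons. With DESeq2 Med9 was called against vehicle (0.20).

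None of the 9 head subunits (Med6, Med8, Med11, Med17, Med18, Med20, Med22, Med28 and Med30) passed the threshold in any comparison by edgeR. Med28, the most abundant of them, came nearest. Its normalized counts were 10169.7, 8699 and 8386 with vehicle, 9904, 7819 and 7327 with oxamate and 7063, 7854 and 7956 with both compounds. The libraries with both compounds lay below those with vehicle and overlapped those with oxamate, and the value against vehicle was -0.27 ± 0.096 (SE, edgeR, adjusted p = 0.0503). With total counts as the scaling it was -0.34 and called, without a filter on low counts -0.23 and with a mean minimum of 100 -0.30, both called, and from only the groups compared -0.26 and called. It was not called with filterByExpr or DESeq2, and was called without oxamate library 4 (-0.27) or 6 (-0.27). Without oxamate library 4 Med22 and Med28 were lower with oxamate than with vehicle (-0.44 and -0.26), both called. The module's median log2 fold changes were -0.10, 0.08 and 0.02.

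In the kinase module Med13l had 601, 568 and 669 normalized counts with vehicle, 705, 727 and 778 with oxamate and 859, 794 and 803 with both compounds. These groups did not overlap. Its rise with both compounds against vehicle was 0.40 ± 0.081 (SE, edgeR, adjusted p = 0.00124), and its value with oxamate was 0.27 ± 0.081 (SE, edgeR, adjusted p = 0.0554), just short of the threshold. Its paralog Med13 had 2667, 3129 and 3366, 3218, 3869 and 4029 and 3504, 3288 and 3258 in the same order. Oxamate library 4 lay within the vehicle range, and oxamate libraries 5 and 6 lay above all others. Med13 was at 0.28 ± 0.085 (SE, edgeR, adjusted p = 0.058) with oxamate and at 0.11 ± 0.085 (SE, edgeR, adjusted p = 0.423) with both compounds. On addition of octyl-L-2HG it was at -0.17 ± 0.085 (SE, edgeR, adjusted p = 0.234). With oxamate library 4 left out Med13 was called at both steps, 0.37 with oxamate (edgeR, adjusted p = 0.000297) and -0.26 on addition of octyl-L-2HG (edgeR, adjusted p = 0.007), and Med13l was called with oxamate at 0.30 (edgeR, adjusted p = 0.0132). Both paralogs were called as raised by oxamate with DESeq2 (adjusted p = 0.0498 each). The partners of the module, taken from a list made for the purpose, differed from each other. Cdk8, its kinase, had 717, 748 and 712 with vehicle, 673, 823 and 820.0 with oxamate and 989, 1034 and 1025 with both compounds, and rose by 0.37 ± 0.082 (SE, edgeR, adjusted p = 0.00484) when octyl-L-2HG was added. Cyclin C (Ccnc), which activates it, had 581, 614 and 612, 580.2, 552 and 563 and 433, 504 and 506, and with both compounds was at -0.34 ± 0.084 (SE, edgeR, adjusted p = 0.00601) against vehicle. Cdk19, the alternative kinase, had 3785, 3792 and 3850.1, 3818, 3790.2 and 3985 and 4400.0, 4354 and 4418, with a rise of 0.18 ± 0.061 (SE, edgeR, adjusted p = 0.0401) against vehicle.

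Of the scaffold and the 7 tail subunits, Med14, Med15 and Med23 rose and Med29 fell with both compounds. Med15, which binds activators, had 3513, 3376 and 3564 normalized counts with vehicle, 4118, 3656 and 3806 with oxamate and 4883, 4463 and 4201 with both compounds. The groups did not overlap, and it rose by 0.35 ± 0.070 (SE, edgeR, adjusted p = 0.00106) against vehicle. Its step on addition of octyl-L-2HG was 0.20 ± 0.070 (SE, edgeR, adjusted p = 0.0718). Med23 had 831, 875 and 912, 1125, 967 and 1066 and 1039, 1074 and 1113. All libraries with oxamate lay above all vehicle libraries, and the values against vehicle were 0.28 ± 0.078 (SE, edgeR, adjusted p = 0.0414) with oxamate and 0.28 ± 0.078 (SE, edgeR, adjusted p = 0.0141) with both compounds. Med14, the scaffold, had 404, 401 and 485, 509.7, 539 and 544 and 540.2, 536 and 498, with the same arrangement of groups. Its values against vehicle were 0.31 ± 0.088 (SE, edgeR, adjusted p = 0.0432) and 0.26 ± 0.088 (SE, edgeR, adjusted p = 0.0401). Med29 had 2639.7, 2248 and 2151, 2450.2, 2185 and 1960.1 and 1987, 1903 and 1877, where only vehicle and both compounds did not overlap, at log2 -0.31 ± 0.087 (SE, edgeR, adjusted p = 0.0151). The oxamate calls of Med23 and Med14 were weak. Med23 was called only in the fit without oxamate library 5 (0.33) of the 9 that left out 1 library, and Med14 only in those without vehicle library 3 (0.39) or oxamate library 4 (0.33). Against vehicle with both compounds, Med14 was called only without vehicle library 3 or oxamate library 4 or 6 (0.22 to 0.37 over the 9 fits). Med23 and Med29 lost that call without vehicle library 1 or without library 8 or 9 of both compounds, with ranges of 0.25 to 0.33 and -0.36 to -0.22. The other tail subunits Med16, Med24, Med25 and Med27 were not called.

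**Figure D3:**
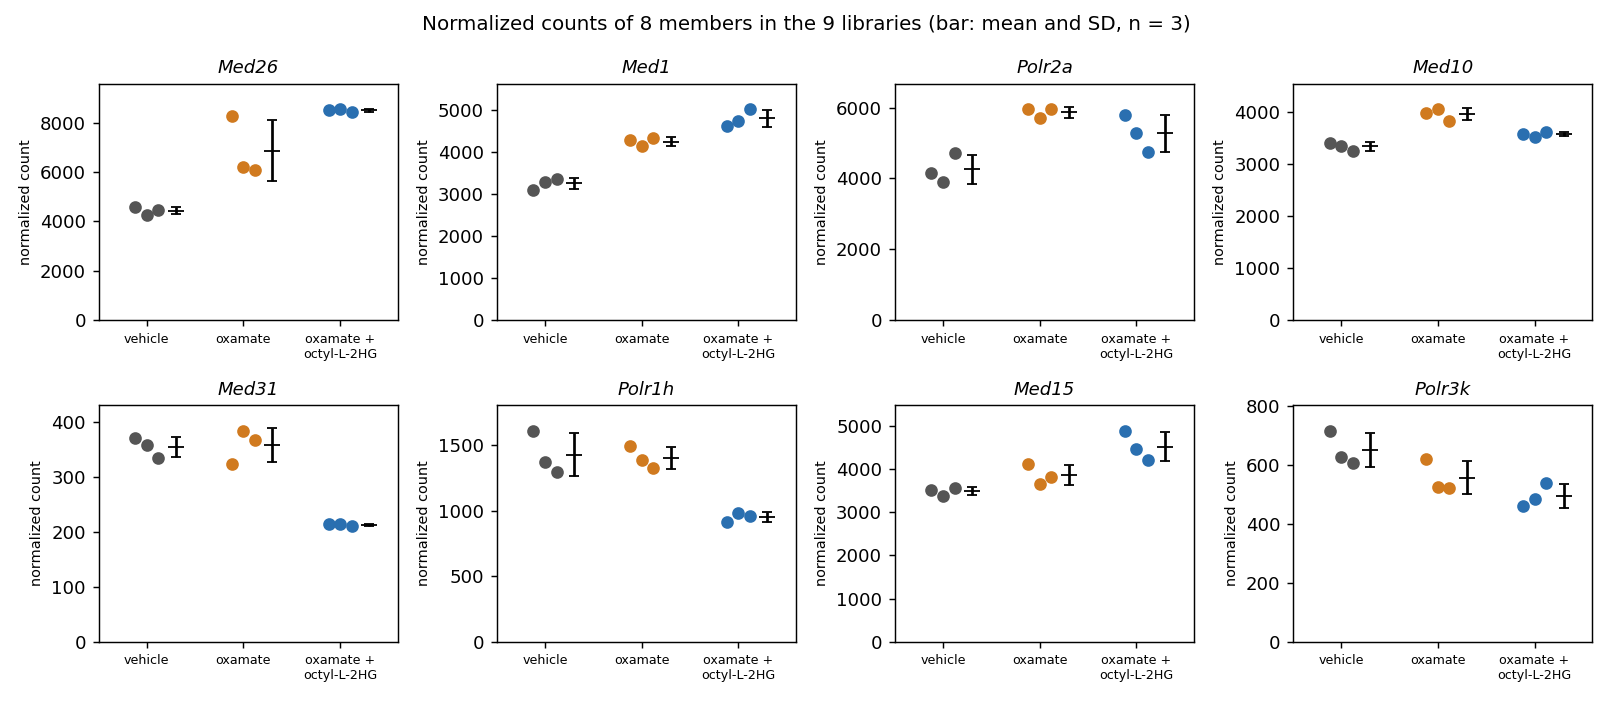
Normalized counts of 8 members in the 9 libraries (points), with the mean and SD of each group beside them (n = 3); axes start at 0. The means of Med26 and Med1 step up from vehicle to oxamate to both compounds, and that of Polr2a is highest with oxamate. For Med1 and Polr2a the step from oxamate to both compounds was not called by edgeR over the 9 libraries. Med31 and Polr1h are low only in libraries 7 to 9.

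Of the 8 subunits that polymerase II alone uses, Polr2a rose with oxamate. It encodes the largest, catalytic subunit, which carries the C-terminal repeat that kinases phosphorylate during transcription. The normalized counts of Polr2a were 4159.9, 3911 and 4711 with vehicle, 5962, 5697 and 5959 with oxamate and 5799, 5272 and 4739.6 with both compounds. The oxamate libraries lay above all vehicle libraries, and those with both compounds reached from just above vehicle into the oxamate range. The rise with oxamate was 0.47 ± 0.076 (SE, edgeR, adjusted p = 0.000641), or 1.38-fold. With octyl-L-2HG added the value against oxamate was -0.18 ± 0.076 (SE, edgeR, adjusted p = 0.136), short of the threshold, although called with total counts as the scaling (-0.23), and the value against vehicle was 0.28 ± 0.076 (SE, edgeR, adjusted p = 0.0114). Without vehicle library 2 the latter was 0.23 and without library 7 of both compounds 0.21, neither called.

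Polr2b, the second largest subunit, did not follow Polr2a at the oxamate step. It had 294, 293 and 317 normalized counts with vehicle, 323, 304 and 298 with oxamate and 409.9, 376 and 353 with both compounds. Vehicle and oxamate overlapped, and all libraries with both compounds lay above them, with a rise of 0.31 ± 0.091 (SE, edgeR, adjusted p = 0.0196) against vehicle. Polr2c, which helps to assemble the core, had 595, 561 and 565, 656, 625 and 571 and 709.7, 690.5 and 708 and rose by 0.27 ± 0.080 (SE, edgeR, adjusted p = 0.0209) against vehicle. Polr2b and Polr2c lost their call without vehicle library 2 or without libraries 7 or 8 of both compounds, Polr2b also without vehicle library 1, and Polr2c also without vehicle library 3 and library 9, with values of 0.26 to 0.36 and 0.26 to 0.30 over the 9 fits. The other subunits of polymerase II alone (Polr2d, Polr2g, Polr2i, Polr2j and Polr2m) were not called by edgeR over all 9 libraries, with values of -0.24 to 0.25. With DESeq2 Polr2m was called against oxamate (0.27), and Polr2i was called against vehicle with total counts (-0.30) or a mean minimum of 100 (-0.26).

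Of the 5 subunits that all polymerases share, 1 was called. Polr2l had 62.2, 68.2 and 49.5 normalized counts with vehicle, 42.9, 40.4 and 44.9 with oxamate and 40.4, 45.0 and 43.1 with both compounds. Both oxamate groups lay below vehicle and overlapped each other. Its value with both compounds was -0.50 ± 0.17 (SE, edgeR, adjusted p = 0.0474), and with oxamate alone it was -0.48 ± 0.17 (SE, edgeR, adjusted p = 0.12). The call of Polr2l was held in 2 of the 9 fits that left out 1 library, those without vehicle library 3 or oxamate library 4, with values of -0.61 to -0.40 over the 9. It was lost with DESeq2 (-0.49), with its size factors (-0.48) and without a filter (-0.46). Neither of the 2 subunits shared by polymerases I and III, Polr1c and Polr1d, was called.

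Of the 5 measured subunits of polymerase I alone, 1 was called lower and 1 higher with both compounds against vehicle. Polr1h, a small subunit used in RNA cleavage, had 1611, 1373 and 1299.5 normalized counts with vehicle, 1498, 1387 and 1329 with oxamate and 912, 984 and 959 with both compounds. As for Med31, vehicle and oxamate overlapped and the libraries with both compounds lay below both. The value was -0.02 ± 0.083 (SE, edgeR, adjusted p = 0.951) with oxamate, -0.59 ± 0.085 (SE, edgeR, adjusted p = 0.000107) on addition of octyl-L-2HG and -0.61 ± 0.085 (SE, edgeR, adjusted p = 2.69e-05) against vehicle, which left 0.656 of the vehicle level. Polr1has, transcribed from the opposite strand at the same locus, had 3933, 4319 and 3975, 3444, 4047 and 4145 and 4933, 4397 and 4187. It was not called, at 0.19 ± 0.078 (SE, edgeR, adjusted p = 0.126) when octyl-L-2HG was added, so the pair did not fall together. The kit keeps strand, but the strand setting of the counting is not given in the sources used here, so reads of this pair and of Med9 and Med9os may have been shared. Polr1a, the largest subunit of polymerase I, had 1456, 1315 and 1550.5, 1570.0, 1344 and 1474 and 1723, 1716 and 1736. All libraries with both compounds lay above the rest, with a rise of 0.24 ± 0.077 (SE, edgeR, adjusted p = 0.0336) against vehicle that was held in 4 of the 9 fits that left out 1 library, all but those without vehicle library 1 or 2 or without library 7, 8 or 9 (0.18 to 0.31). With total counts as the scaling it was 0.18 and with the length trend of each library taken out 0.11, neither called. Polr1b, Polr1e and Polr1f were not called.

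Among the 10 subunits of polymerase III alone, Polr3e rose and Polr3k fell. Polr3e had 1876, 1747 and 1921, 2043, 1815 and 1783 and 2252, 2258 and 2251, and the libraries with both compounds differed by less than 7 counts and lay above all others. Its values were 0.23 ± 0.072 (SE, edgeR, adjusted p = 0.0378) against oxamate, called in 4 of the 9 fits (all but those without oxamate library 5 or 6 or without library 7, 8 or 9; 0.19 to 0.30), and 0.26 ± 0.072 (SE, edgeR, adjusted p = 0.0123) against vehicle, not called without vehicle library 2 (0.23) or library 8 (0.27). Polr3k, a small subunit used in cleavage and termination, had 717, 629 and 609, 621, 526 and 524 and 462, 484 and 539. Only vehicle and both compounds did not overlap, with a difference of -0.42 ± 0.096 (SE, edgeR, adjusted p = 0.00364). The catalytic subunits Polr3a and Polr3b were not called, at 0.00 and 0.14 with oxamate and 0.03 and 0.14 with both compounds against vehicle.

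**Figure D4:**
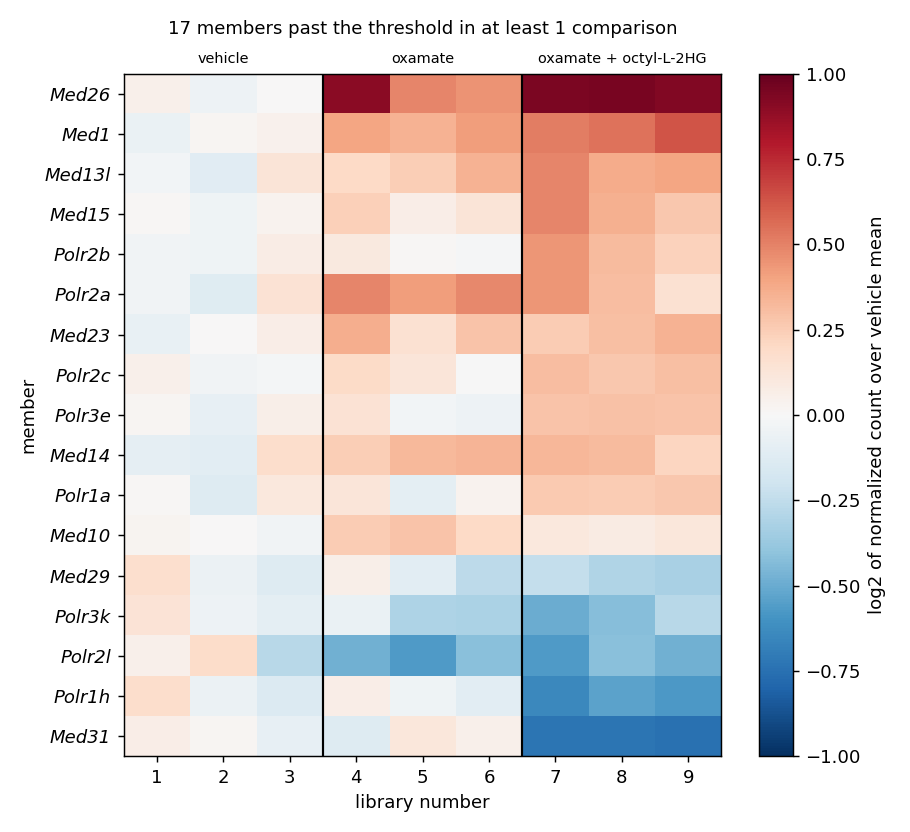
Log2 of the normalized count over the vehicle mean (colour) for 17 members past the threshold in at least 1 comparison (rows) in libraries 1 to 9 (columns). Most upper rows turn red in libraries 7 to 9, Med31 and Polr1h turn blue only there, and Med26 in oxamate library 4 is close to its level in libraries 7 to 9.

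Other genes of the transcription machinery were taken from lists of 105 measured genes: general initiation factors, elongation factors, kinase partners, assembly factors, factors of polymerases I and III and mitochondrial transcription. With oxamate 7 were higher and 1 was lower. With octyl-L-2HG added 9 were higher and 9 lower than with oxamate, and against vehicle 20 were higher and 9 lower. In percent of the list 6.67%, 8.57% and 19.0% were higher and 0.952%, 8.57% and 8.57% lower. Of all genes 3.97%, 3.18% and 7.48% were higher and 1.22%, 8.06% and 10.6% lower, and of genes with a mean of at least 100 normalized counts 8.08%, 7.06% and 16.0% were higher and 1.59%, 12.7% and 13.6% lower. Their median log2 fold changes were 0.03, 0.01 and 0.07, close to those of the members. Past the threshold at both steps were Hexim1 and Taf1d. Hexim1, an inhibitor of the elongation kinase P-TEFb, had 38.2, 35.1 and 39.4 normalized counts with vehicle, 57.2, 67.4 and 80.0 with oxamate and 38.2, 47.3 and 42.1 with both compounds. It rose by 0.85 ± 0.17 (SE, edgeR, adjusted p = 0.00413) with oxamate and was at -0.70 ± 0.17 (SE, edgeR, adjusted p = 0.0114) against oxamate when octyl-L-2HG was added, and vehicle and both compounds overlapped. Taf1d, a part of the polymerase I selectivity factor, had 247, 295 and 288, 294, 376 and 395 and 468, 468 and 463. It rose at each step, by 0.36 ± 0.11 (SE, edgeR, adjusted p = 0.049) and 0.37 ± 0.10 (SE, edgeR, adjusted p = 0.0219). Its oxamate library 4 lay within the vehicle range, and its oxamate call was close to the threshold. The calls of Hexim1 and Taf1d were not followed through the fits that left out 1 library. Without oxamate library 4 the counts of calls were 18, 33 and 41.

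Fold changes of the members varied with transcript length, which the choice of genes did not use. Exon lengths ran from 0.527 to 15.4 kb with a median of 3.37. The 6 members that rose with oxamate had 3 to 8.76 kb, the 12 that rose with both compounds had 3 to 15.4 kb and the 5 that fell had 0.819 to 3.12 kb. Over the 51 members with a mean of at least 100 normalized counts, Spearman's rho of length and log2 fold change was 0.62 with oxamate, 0.13 for both compounds against oxamate and 0.52 for both against vehicle. Over 10696 genes it was 0.31, 0.17 and 0.35. These are correlations across genes of the same libraries, not across replicates. In a fit with the length trend of each library taken out, 3 members were called with oxamate (Med26, Med1 and Polr2a) and 10 with both compounds against vehicle, with Med31 and Polr1h still among them. The oxamate calls of Med14, Med23 and Med10 were lost, at 0.23, 0.21 and 0.20. Against vehicle the calls of Polr2l (-0.44), Polr2b (0.23), Med29 (-0.21), Polr2c (0.19), Polr3e (0.18), Polr2a (0.18), Med23 (0.18), Med14 (0.15) and Polr1a (0.11) were lost, and those of Med28 (-0.36) and Med9 (0.23) appeared.

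**Figure D5:**
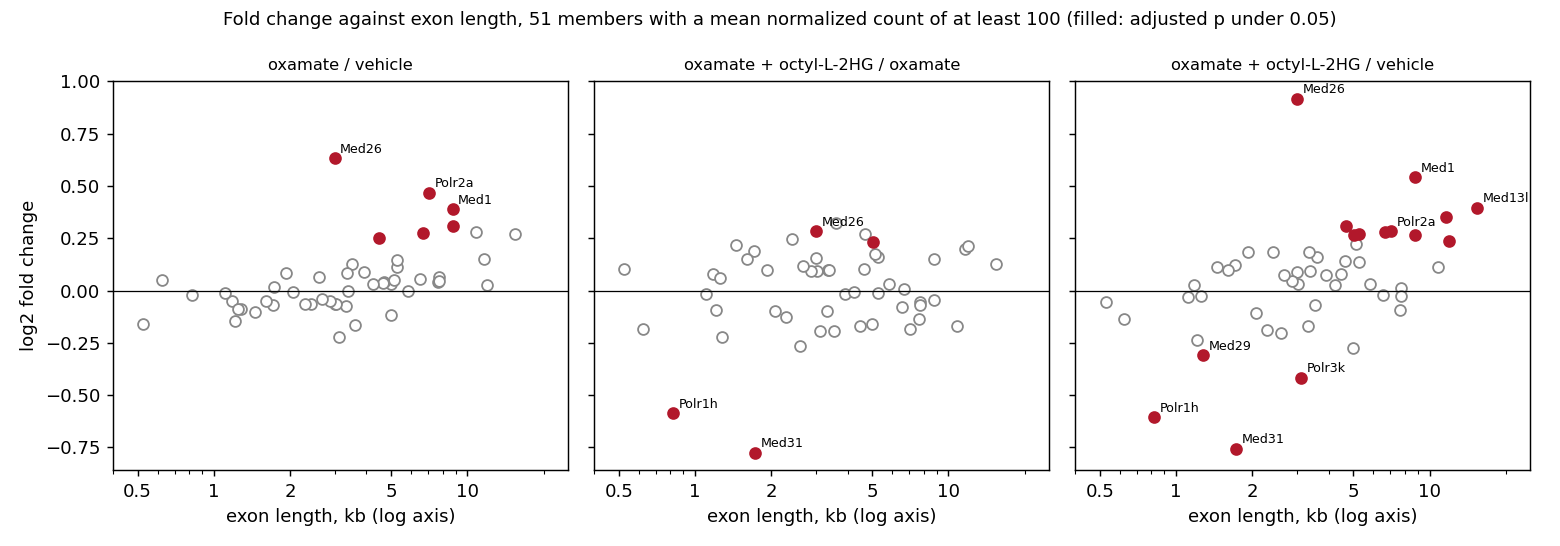
Log2 fold change against exon length in kb (log axis) for the 51 members averaging at least 100 normalized counts, for each comparison; filled points passed an adjusted p of 0.05. With oxamate the values climb with length (rho 0.62), and Med26 stands away from the other points. Med31 and Polr1h stand away only in the comparisons that include octyl-L-2HG.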

How the data were processed

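RNA of mouse RS was sequenced in 3 libraries per group. Per the labels' processing notes and the study's methods, the authors trimmed reads with cutadapt 2.10, aligned them with TopHat2 2.1.1, counted reads per gene with HTSeq 2.01 and deposited these counts without normalization. The build is taken as GRCm39, the mouse build listed in the notes, since the methods print another name. The strand setting is not given in the sources used here. The authors also deposited a normalized signal, the count divided by the DESeq2 1.36.0 size factor of the library, which own size factors matched to a relative difference of 5e-10. Of 55414 genes listed, 6250 have blank counts and were left out.

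The 25128 genes with 10 or more counts in sum went into edgeR 4.0.16 (TMM, 1 robust quasi-likelihood fit of all 9 libraries with the group as the only term, Benjamini-Hochberg adjustment over all genes, threshold 0.05) in R 4.3.3. DESeq2 1.42.0 was an alternative. After the main fit the test was also run on simulated counts with known changes, built from the levels and spread of these data. Its outcome is not given here. The members and gene lists were chosen with earlier results of these data known. Each member past the threshold in a pairwise comparison, and the paralog pairs of Med12, Med13 and Polr3g, are given by library, and the others by ranges. The values of 1 member past the threshold are not reported here, and it is counted but not named or drawn. Machinery genes outside the family are named where they passed at both steps, with Cdk8, Cdk19 and cyclin C. Exon lengths came from another annotation (GENCODE M21), matched by gene identifier for 99.6% of genes and all 62 members, and promoter sequences from RefSeq (GRCm38.p6). No coordinates were carried over to GRCm39. Precision is limited by the spread between libraries and, for the 11 members averaging under 100 normalized counts, Polr2l among them, also by counting error.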

Additional observations from a re-analysis of the deposited data

How the results depend on the processing

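The library numbers run from 1 to 9 through the groups, so they do not show whether libraries of different groups shared a preparation. No paired analysis was made. Vehicle library 1 and oxamate library 4 each lay farthest from the others of their group, and whether they share a source was not tested. No called value reversed its direction. Of the alternative values of called members, 401 kept direction and side of the threshold and 100 kept direction and lost the call. Calls of Med31 and Polr1h in both comparisons, of Med26, Med1 and Polr2a with oxamate, and of Med26, Med1, Med15, Med13l and Polr3k against vehicle held under every alternative and without each library. Total counts as the scaling ended the calls of Med14 and Med23 with oxamate, of Med26 and Polr3e against oxamate, and of Med14, Med23, Polr2b, Polr2c and Polr1a against vehicle. DESeq2 size factors ended those of Med14 with oxamate and Polr2l, the mean minimum of 100 those of Med26 against oxamate and Med14 against vehicle, and a fit of only the groups compared those of Med10, Med14 and Med23 with oxamate. Calls were also added. On addition of octyl-L-2HG, Med15, Polr2b, Polr2m and Polr1a were called with DESeq2, its size factors, no filter and filterByExpr, Polr2b with the mean minimum of 100, Polr1a in a fit of only the groups compared, Med22 (0.37) and Polr1has (0.24) without a filter, Med29 (-0.26) and Med21 (-0.24) with total counts, and Med9os (0.21) with the length offset. With oxamate Med13 was called without a filter (0.28). Against vehicle Med9 was called without a filter and, with Polr2i and Med16 (0.16), in a fit of only the groups compared. Polr2l has no value under the mean minimum of 100. Counts of members called (6 with oxamate, 5 for both compounds against oxamate, 17 against vehicle, 17 for any difference) moved as follows. Leaving out 1 library gave 3 to 11, 2 to 13, 9 to 21 and 9 to 26, and at an adjusted p under 0.01 they were 3, 2, 8 and 8. At an unadjusted p under 0.05 the first were 13 and 16. Only the groups compared gave 3 with oxamate. For both compounds against oxamate, DESeq2 gave 10, its size factors 9, no filter 11 and filterByExpr 9. DESeq2 shared 6, 5 and 16 calls with edgeR. Chosen after seeing the data, the length trend per library as an offset gave 3 with oxamate, 10 against vehicle and 11 for any difference. A residual component as covariate, also chosen then and computed from these same libraries, gave 14, 23, 27 and 33. Causes of these moves were not tested, and a fit that leaves out 1 library also holds fewer libraries. For the other machinery genes (8, 18, 29 and 29 called) leaving out 1 library gave 5 to 18, 11 to 33, 18 to 41 and 24 to 50, and the residual component 31, 41, 53 and 63. At an unadjusted p under 0.05 they were 27, 37 and, for any difference, 46, and 11 at 0.01 for both compounds against oxamate. Total counts as the scaling moved the median of all genes by at most 0.06 on the log2 scale.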
